A study of Homo sapiens with 12 samples.

Results

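The genes described here are ligands, receptors, extracellular regulators, SMADs, inhibitors and ID genes of the TGF-β and BMP pathway, picked by symbol. Of 54 symbols searched, 51 had a row in the expression table, which lists 12616 genes in all. LTBP2, NBL1 and CHRD had no row and are not analysed here. RNA was measured by QuantSeq Forward 3′ end sequencing in MeWo and SkMel28, both established human melanoma lines. MITF, which defines the melanocyte lineage, was the target of a hairpin RNA that each line expressed under control of doxycycline (Dox), and cells were sampled on day 8. The MeWo control and SkMel28 control groups had the hairpin but no Dox (0 µg/ml), the MeWo Dox and SkMel28 Dox groups had 1 µg/ml Dox, and each of the 4 groups holds 3 libraries. The labels give EMEM as the medium of MeWo and RPMI as that of SkMel28, but the study's methods name RPMI for both. If the labels hold, line and medium cannot be told apart. No group given Dox without this hairpin is compared here, so that hairpin and drug also cannot be told apart. The sources used here do not say whether a line is 1 clone, nor that the 3 libraries of a group came from separate cultures, so p-values measure only the spread between these libraries.

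Transforming growth factor beta (TGF-β), the activins and the bone morphogenetic proteins (BMPs) are secreted dimers that bring together a type I and a type II receptor kinase at the cell surface. The type I receptor then phosphorylates SMAD proteins: SMAD2 and SMAD3 for TGF-β and activin, and SMAD1, SMAD5 and SMAD9 for BMP. These join SMAD4, enter the nucleus and switch on genes that include feedback inhibitors such as SMAD6, SMAD7 and PMEPA1, and, on the BMP arm, the ID genes. Melanocytes arise from the neural crest, whose formation depends on BMP signals, and melanoma cells are known both to make and to answer TGF-β family ligands.

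Libraries held 2568187 to 3714608 reads. A value is the number of reads of a gene per 1000000 of an effective library size, and 1 read is worth 0.278 to 0.389. A group with at most 3 reads in every library is called at the floor, which is a value of at most 1.17. MITF fell in both lines (log2 −0.79, SE 0.11, adjusted p 6.49e-05 in MeWo, and log2 −0.49, SE 0.11, adjusted p 0.00705 in SkMel28, a call lost without a mean-variance trend). Of the melanocyte lineage markers, 8 of 8 were listed, and their summed value was 13080 to 13277 in MeWo control, 6706 to 8414 in MeWo Dox, 11490 to 12844 in SkMel28 without Dox and 7657 to 8001 with it. PMEL weighed most in these sums (mean 7450 in MeWo control), and the markers did not all fall. MITF, PMEL and MLANA were called lower in both lines, and SOX10, TYR and TYRP1 in MeWo only. S100B was called higher in both lines (3.94-fold in MeWo and 2.20-fold in SkMel28) and DCT in MeWo (1.89-fold). Markers of other cells were few: 2 of 8 fibroblast markers (DCN and LUM, summed 6.04 to 47.8), 1 of 5 epithelial markers (CDH1, 0.668 to 61.9), 1 of 5 blood markers (CD68, 18.7 to 151) and 0 of 4 endothelial markers had a row. The fibroblast, epithelial and blood sums were lower with Dox in SkMel28, and the fibroblast and epithelial sums also in MeWo, and their part in the results was not tested. The MeWo Dox libraries were less alike than those of the other groups (correlation across genes 0.960 to 0.976, against 0.979 to 0.985 in the others). MeWo Dox replicate 1 stood nearer to the controls than its partners for several lineage genes, such as TYR (389, 167 and 194 in replicates 1 to 3, control 346, 398 and 375) and SOX10 (312, 158 and 155, control 289, 296 and 293), and results that turn on it are given with and without it.

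With Dox, MeWo cells had more RNA for the activin subunit INHBA, the TGF-β response gene PMEPA1, the procollagen and chordin protease BMP1, the TGF-β binding protein LTBP3 and the BMP target ID1, and less for ID2 and SMAD9. SkMel28 cells had more RNA for the TGF-β receptors TGFBR1, TGFBR2 and TGFBR3, the intracellular effectors SMAD3 and SMAD9, and the secreted FST and FSTL1. ID1 and ID3 rose in both lines. Of the genes named here, the difference between the lines was called only for INHBA, PMEPA1, BMP1, ID2, SMAD9 and TGFBR2. The calls of TGFBR3, SMAD3, SMAD9 and FST in SkMel28 and of ID2, ID3 and SMAD9 in MeWo were lost under some alternatives, given below. So were the calls of INHBA and BMP1 for the difference between the lines. Changes were tested with limma on log2(value + 1), with Benjamini-Hochberg adjustment over all 12616 genes of a contrast and a limit of 0.05 on the adjusted p for a call.

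In MeWo 14 of the 51 genes (27.5%) were called, 11 higher and 3 lower, where 16.7% of all genes were called, 8.58% higher and 8.12% lower. In SkMel28 12 of the 51 (23.5%) were called, and all 12 were higher, where 10.9% of all genes were called, 5.88% higher and 5.04% lower. The count of 0 lower genes in SkMel28 was also 0 at an unadjusted p under 0.05 in limma, and 0 with edgeR and with DESeq2, but BMP4, at no more than 2 reads in any SkMel28 library, was called lower with a pseudocount of 0.1 (−2.64) and in a fit of SkMel28 alone (−0.63). The median change of the 51 genes was 0.03 in MeWo and 0.38 in SkMel28, against 0.00 for all genes in each line. Both lines together, 2 genes were called higher in both (ID1 and ID3), 1 was called in opposite directions (SMAD9), 11 were called in MeWo and not in SkMel28, 9 in SkMel28 and not in MeWo, and 28 in neither. Of all genes 1.91% were called higher in both lines, 0.38% in opposite directions, 12.6% in MeWo and not in SkMel28, 6.84% in SkMel28 and not in MeWo, and 76.5% in neither. The count in MeWo was 9 without MeWo control replicate 2 or 3 and 8 without MeWo Dox replicate 3. It was 7 when MeWo was fitted alone, and with scaling to the spike-in RNAs 12 were called higher and 1 lower. That in SkMel28 was 7 without SkMel28 control replicate 2, 5 without SkMel28 control replicate 3 and 6 without SkMel28 Dox replicate 1 or 2, and it was also 6, all higher, with scaling to spike-ins. The shares of all genes come from the main fit, so counts under alternatives, here and below, have no matching share beside them.

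The difference between the changes in the lines (MeWo change minus SkMel28 change, the interaction) was itself called for 6 of the 51 genes (11.8%), where 7.09% of all genes were called, 3.71% higher and 3.38% lower. INHBA (2.38), PMEPA1 (2.64) and BMP1 (1.33) changed more upward in MeWo. TGFBR2 (−1.95), SMAD9 (−2.48) and ID2 (−1.40) changed more upward in SkMel28. The INHBA call was lost with edgeR, with DESeq2 and with a pseudocount of 0.1, and the BMP1 call in 9 of 21 alternatives. Leaving out 1 library gave as few as 5 calls. Without MeWo Dox replicate 1 the interaction was called for 14 genes, the same 6 and 8 more, and with scaling to spike-ins 5 were called on the MeWo side and 3 on the SkMel28 side. Those added without MeWo Dox replicate 1 were GDF11 (1.19) on the MeWo side, and TGFBR1 (−0.86), BMPR2 (−0.68), FSTL1 (−0.67), SMAD3 (−0.86), SMAD5 (−0.51), SKI (−0.83) and SKIL (−1.05) on the SkMel28 side. The difference was also called for TGFBR1 (−0.78) and FST (−0.91) with a pseudocount of 5, for GDF11 (1.37) and LTBP3 (0.93) with scaling to spike-ins, and for BMP2 (−1.60) without SkMel28 Dox replicate 3. For the remaining genes that were called in 1 line alone, it was not called in any alternative run.

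**Figure D1:**
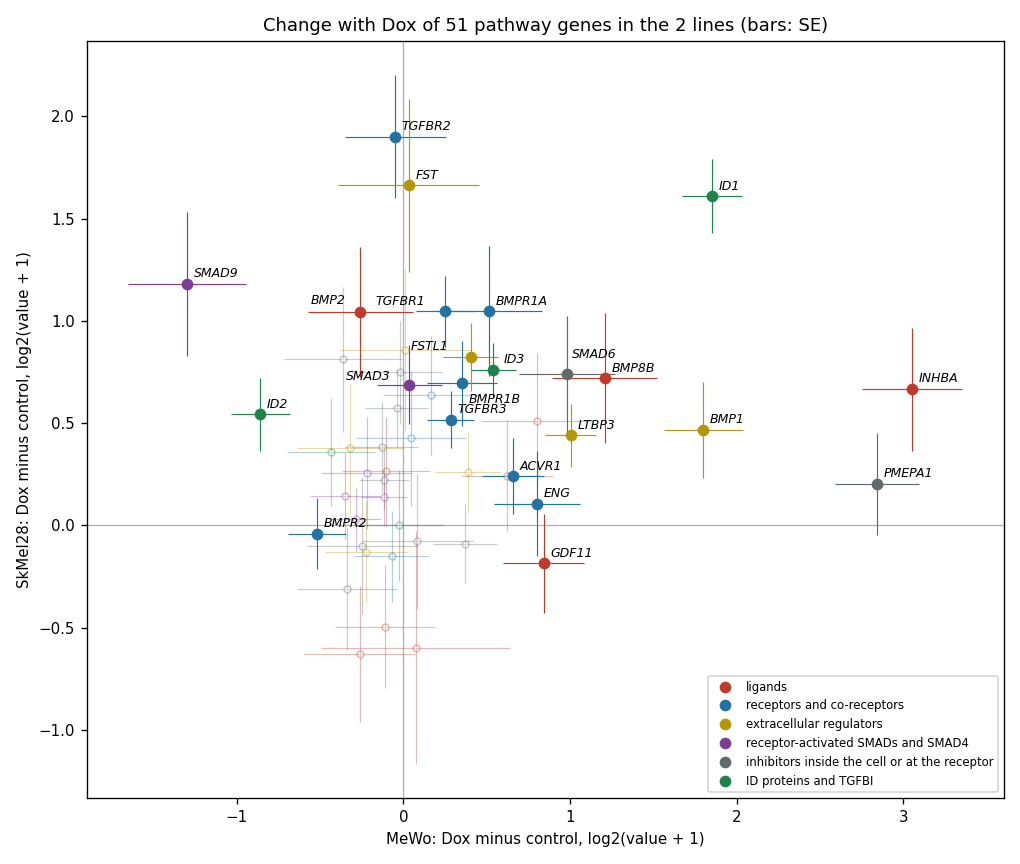
Change of each of the 51 genes with Dox in MeWo (x axis) and in SkMel28 (y axis), both as Dox minus control in log2(value + 1) and with the SE from limma as bars. Filled, named points were called in at least 1 line and open points in neither. INHBA (3.05) and PMEPA1 (2.84) lie far to the right, TGFBR2 (1.90) lies highest near an x of 0, ID1 lies high on both axes, and SMAD9 lies to the left and up.

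Ligands come first. The ligand with the clearest change was INHBA, the βA subunit of activin A, on chromosome 7 (41667168 to 41705834, − strand, hg38). It stood at 3.74, 3.89 and 1.62 in the MeWo control libraries and at 25.5, 36.4 and 33.9 in the MeWo Dox libraries. Every MeWo Dox library was far above every MeWo control library, and the mean rose 10.4-fold (log2 3.05, SE 0.30, adjusted p 1.69e-06). SkMel28 control libraries were at the floor (0.557, 0.317 and 0), and SkMel28 Dox libraries held 1.19, 1.34 and 0.604 (log2 0.67, SE 0.30, adjusted p 0.184), a change that was not called. The interaction (log2 2.38, SE 0.42, adjusted p 0.00287) was not called with edgeR, with DESeq2 or with a pseudocount of 0.1, which gave 1.56 to 1.78. Activin A acts through the receptors ACVR2A or ACVR2B with ACVR1B, and these are described with the receptors.

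GDF11, a ligand close to myostatin that uses the same receptors as activin, stood at 8.64, 5.83 and 6.15 in MeWo control and 10.2, 17.8 and 11.9 in MeWo Dox. The groups did not overlap and the mean rose 1.93-fold (log2 0.84, SE 0.24, adjusted p 0.0241). SkMel28 libraries without Dox held 12.5, 12.1 and 16.1 and those with Dox 13.7, 9.69 and 12.1. These overlapped, and the change was not called (log2 −0.19, SE 0.24, adjusted p 0.712). GDF11 shares its 3′ end region with SARNP, whose change was not called (−0.17 in MeWo), and the strand used in counting is not given in the sources used here. Its MeWo call was lost in a fit of MeWo alone and without MeWo control replicate 2 or 3 or MeWo Dox replicate 2 (0.63 to 0.78).

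The other ligands held few reads or did not change. BMP8B was called higher in MeWo, from the floor to 1.83 ± 0.472, at least 1.83-fold, on at most 7 reads per library (log2 1.21, SE 0.32, adjusted p 0.0146). It overlaps PPIE at its 3′ end and has a near-identical copy, BMP8A, so its reads are uncertain. The call was lost with DESeq2 and without MeWo control replicate 3 or MeWo Dox replicate 3 (1.07). BMP2 was called higher in SkMel28, from 1.54 ± 0.403 to 4.604 ± 2.77 (log2 1.04, SE 0.32, adjusted p 0.0429), and was at the floor in both MeWo groups. That call is weak, since it was lost in 14 of 21 alternatives, among them edgeR, DESeq2 and 8 of 12 fits that each left out 1 library, SkMel28 Dox replicate 1 (0.67) included. TGFB2, the TGF-β isoform with the highest value in MeWo, was 9.02 ± 1.299 in MeWo control and 8.49 ± 2.61 in MeWo Dox, and BMP4 was 11.1 ± 1.303 and 10.2 ± 6.53. In SkMel28 both were at the floor with and without Dox, where BMP4 held 0.278, 0.635 and 0.766 in the control and 0 in all 3 Dox libraries, with the lower calls named above under 2 alternatives. BMP7, in turn, was at the floor in both MeWo groups and 26.01 ± 1.55 and 18.5 ± 4.47 in SkMel28 control and Dox, where the groups did not overlap and the change was not called (log2 −0.49, SE 0.30, adjusted p 0.344). TGFB1, TGFB3 and INHBE held at most 13 reads in any library and were called in neither line, though in MeWo TGFB1 was called higher without MeWo Dox replicate 1 (0.98) and TGFB3 with a pseudocount of 0.1 (2.60).

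**Figure D2:**
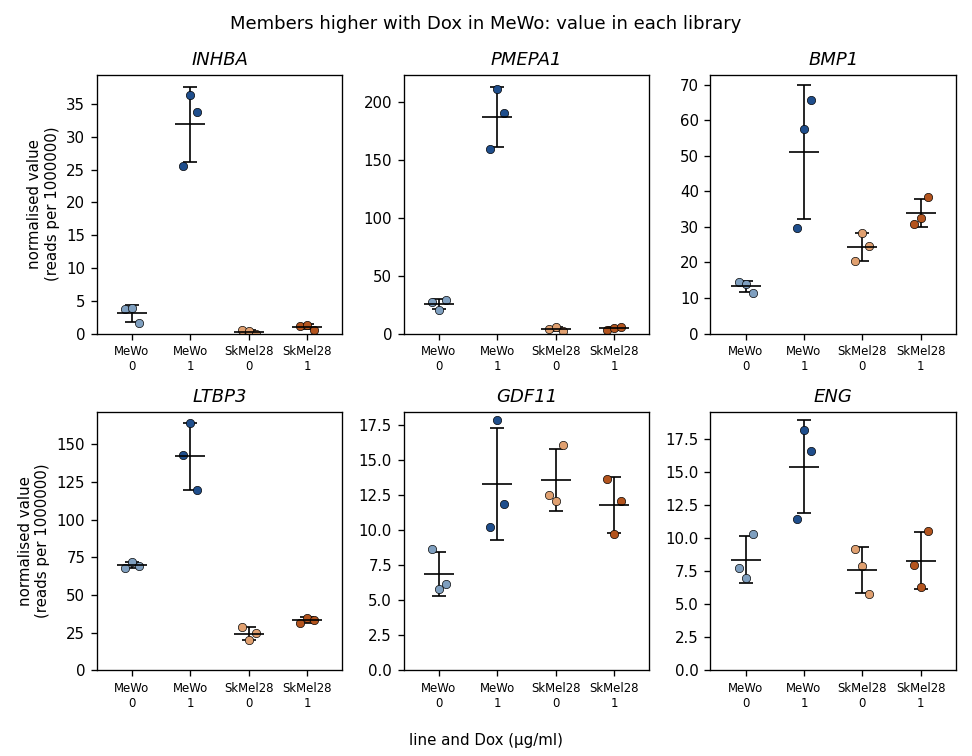
Normalised value (reads per 1000000 of effective library size, linear axis from 0) of INHBA, PMEPA1, BMP1, LTBP3, GDF11 and ENG in each of the 12 libraries, by line and Dox dose in µg/ml. Points are libraries, horizontal lines group means and bars the SD of 3 libraries. In all 6 panels the 3 MeWo Dox libraries lie above the 3 MeWo control libraries, and INHBA and PMEPA1 stay low in all 6 SkMel28 libraries.

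Among the 11 receptors and co-receptors, 5 were called higher in SkMel28, where 5.88% of all genes were, and in MeWo 2 were called higher and 1 lower, against 8.58% and 8.12% of all genes. DESeq2 called 3 higher in SkMel28, and the difference between the lines was called for 1 of the 11, TGFBR2. TGFBR1, the type I receptor of TGF-β (chromosome 9, 99104038 to 99154192, + strand), stood at 67.4, 81.2 and 57.9 in SkMel28 control and 165, 140.4 and 124 in SkMel28 Dox. The groups were well apart, and the mean rose 2.08-fold (log2 1.05, SE 0.17, adjusted p 0.000658). In MeWo it was 26.8, 20.6 and 27.9 without and 32.6, 24.3 and 33.5 with Dox, which overlapped and was not called (log2 0.25, SE 0.17, adjusted p 0.354). The difference between the lines just missed the threshold (log2 −0.79, SE 0.25, adjusted p 0.059) and was called in the pair of alternatives named above.

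TGFBR2, the type II receptor that binds TGF-β and activates TGFBR1, lies on chromosome 3 (30606601 to 30694142, + strand). SkMel28 control libraries held 12.5, 11.4 and 6.13 and SkMel28 Dox libraries 47.2, 42.1 and 29.01. No library of one group reached the other, and the mean rose 3.93-fold (log2 1.90, SE 0.30, adjusted p 0.000429). MeWo control libraries held 24.8, 29.5 and 29.8 and MeWo Dox libraries 39.9, 15.2 and 32.2. These scattered around the controls on both sides (log2 −0.05, SE 0.30, adjusted p 0.944), and the lines differed in their change (log2 −1.95, SE 0.43, adjusted p 0.0115). The change in SkMel28 and the difference between the lines were called in every alternative run. SkMel28 Dox thus reached 39.4 ± 9.39, where MeWo control had 28.03 ± 2.83.

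TGFBR3, betaglycan, presents TGF-β to TGFBR2 and serves as an inhibin and BMP co-receptor. It stood at 53.2, 49.2 and 47.9 in SkMel28 control and at 77.2, 71.5 and 67.7 in SkMel28 Dox, all Dox libraries above all controls (1.44-fold, log2 0.52, SE 0.14, adjusted p 0.0248). In MeWo it was 40.3, 54.01 and 49.6 and 65.4, 57.6 and 52.5, overlapping, with a change of 0.29 that was not called (adjusted p 0.179). BMPR1B, a BMP type I receptor, held 8.91, 10.8 and 7.28 in SkMel28 control and 13.95, 17.05 and 14.2 in SkMel28 Dox, again without overlap (log2 0.69, SE 0.21, adjusted p 0.0405). In MeWo its control libraries held 9.79, 10.1 and 12.96 and its Dox libraries 13.4, 13.3 and 15.9, also without overlap but not called (log2 0.35, SE 0.21, adjusted p 0.271). BMPR1A, the related type I receptor, went from 0.803 ± 0.525 to 2.66 ± 0.632 in SkMel28 (log2 1.05, SE 0.32, adjusted p 0.0429) on at most 11 reads per library. The TGFBR3 call was lost without SkMel28 control replicate 2 or 3 or SkMel28 Dox replicate 1 or 2 (0.47 to 0.52), with scaling to spike-ins and without a mean-variance trend. The BMPR1B and BMPR1A calls were each lost in 11 alternatives, among them DESeq2, scaling to spike-ins, and leaving out MeWo control replicate 1, SkMel28 control replicate 3 or any SkMel28 Dox replicate. Leaving out SkMel28 control replicate 2 (BMPR1A), or MeWo control replicate 2 or SkMel28 control replicate 1 (BMPR1B), also ended a call, and over these fits BMPR1A changed by 0.87 to 1.18 and BMPR1B by 0.57 to 0.74.

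In MeWo the receptors that rose were ACVR1 and ENG. ACVR1, a BMP and activin type I receptor, stood at 15.8, 15.5 and 12.6 in control and 22.98, 19.7 and 29.1 in Dox, without overlap (1.63-fold, log2 0.66, SE 0.19, adjusted p 0.0219). Its SkMel28 libraries overlapped at 20.9, 17.8 and 21.8 and 21.7, 26.4 and 23.9 (log2 0.24, SE 0.19, adjusted p 0.485). ENG, endoglin, a co-receptor best known from endothelium, stood at 7.77, 6.99 and 10.4 and 11.5, 18.2 and 16.6 in MeWo, without overlap (1.84-fold, log2 0.80, SE 0.26, adjusted p 0.0403), while the endothelial markers had no row. SkMel28 gave 9.19, 7.93 and 5.75 and 8.02, 6.35 and 10.6 for ENG, overlapping (log2 0.11, SE 0.26, adjusted p 0.855). The type II receptor BMPR2 went from 48.4, 50.1 and 55.4 in MeWo control to 47.2, 28.8 and 32.9 in MeWo Dox, where replicate 1 lay just under the lowest control (log2 −0.52, SE 0.17, adjusted p 0.05). In SkMel28 BMPR2 held 61.8, 46.6 and 51.3 and 49.9, 57.5 and 47.4, which overlapped (log2 −0.04, SE 0.17, adjusted p 0.928). The BMPR2 adjusted p lies at the threshold, and the call was lost in 19 of 22 alternatives, which include edgeR, DESeq2 and the fits without any single library other than MeWo Dox replicate 1 (−0.56 to −0.37). The ACVR1 call was lost without MeWo control replicate 3 or MeWo Dox replicate 3 (0.51 to 0.56), and the ENG call without MeWo control replicate 1 or 2, MeWo Dox replicate 2 or 3 or SkMel28 Dox replicate 1 (0.68 to 0.80), and both in a fit of MeWo alone, ENG also with a pseudocount of 0.1 (0.87). The activin receptors ACVR1B, ACVR2A and ACVR2B were called in neither line. Their changes were −0.07, 0.05 and 0.17 in MeWo, and −0.15, 0.43 and 0.64 in SkMel28.

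**Figure D3:**
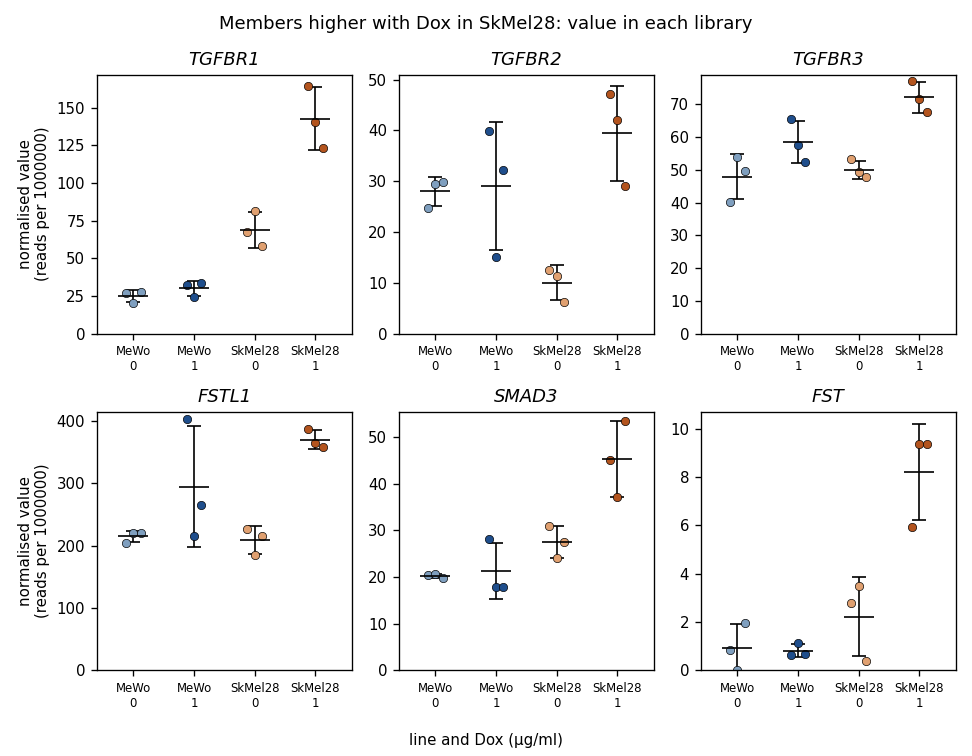
Normalised value (reads per 1000000 of effective library size, linear axis from 0) of TGFBR1, TGFBR2, TGFBR3, FSTL1, SMAD3 and FST in each of the 12 libraries, by line and Dox dose in µg/ml. Points are libraries, horizontal lines group means and bars the SD of 3 libraries. In all 6 panels the 3 SkMel28 Dox libraries lie above the 3 SkMel28 control libraries, while the MeWo Dox libraries of each gene overlap the MeWo controls.

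The extracellular regulators act on the ligands before they meet a receptor, and 2 of the 8 listed were called higher in each line, BMP1 and LTBP3 in MeWo and FSTL1 and FST in SkMel28, against 8.58% and 5.88% of all genes. The difference between the lines was called for BMP1 and for none of the other 7, other than under the alternatives named above. BMP1, a metalloprotease that processes procollagens and cleaves the BMP antagonist chordin and the latent TGF-β binding protein LTBP1, stood at 14.4, 13.99 and 11.3 in MeWo control and 29.7, 57.6 and 65.7 in MeWo Dox. The 3 MeWo Dox libraries lay above all controls but far apart from each other, and the mean rose 3.85-fold (log2 1.80, SE 0.24, adjusted p 4.11e-05). SkMel28 gave 20.3, 28.2 and 24.5 and 30.9, 32.4 and 38.4, also without overlap, with a smaller change that was not called (log2 0.47, SE 0.24, adjusted p 0.247). The interaction (log2 1.33, SE 0.33, adjusted p 0.024) was lost without a mean-variance trend and without MeWo control replicate 2 or 3, MeWo Dox replicate 2 or 3, SkMel28 control replicate 2 or 3, or SkMel28 Dox replicate 1 or 2 (1.12 to 1.37).

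LTBP3, which holds latent TGF-β and helps its secretion, lies on chromosome 11 (65538559 to 65558930, − strand). MeWo control libraries held 67.96, 71.9 and 69.6 and MeWo Dox libraries 143, 164 and 119.6, with a wide gap between the groups (2.04-fold, log2 1.00, SE 0.15, adjusted p 0.000185). In SkMel28 the values were 28.96, 19.99 and 24.5 and 31.2, 35.1 and 33.5, without overlap and not called (log2 0.44, SE 0.15, adjusted p 0.0784), other than without MeWo Dox replicate 1 (0.44) or SkMel28 control replicate 1 (0.56). LTBP1 and LTBP4, its relatives, were called in neither line.

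FSTL1, a secreted glycoprotein of the follistatin-like family that binds BMP4, stood at 227, 185 and 215 in SkMel28 control and at 387, 365 and 358 in SkMel28 Dox. Groups were far apart with tight replicates (1.77-fold, log2 0.82, SE 0.17, adjusted p 0.0031). MeWo gave 204, 221 and 219.9 and 404, 215 and 265, where Dox replicate 1 was high and replicate 2 lay among the controls (log2 0.40, SE 0.17, adjusted p 0.105). With scaling to spike-ins (0.68) and without MeWo Dox replicate 2 (0.61) FSTL1 was called higher in MeWo as well. FST, follistatin, which traps activin, held 2.78, 3.49 and 0.383 in SkMel28 control and 5.94, 9.36 and 9.37 in SkMel28 Dox, without overlap (3.704-fold, log2 1.66, SE 0.42, adjusted p 0.0164). It held 0.864, 0 and 1.94 and 0.638, 1.14 and 0.677 in MeWo, at most 6 reads per library (log2 0.03, SE 0.42, adjusted p 0.98). The FST call was lost with a pseudocount of 0.1, in a fit of SkMel28 alone and without SkMel28 control replicate 3 or SkMel28 Dox replicate 2 or 3 (1.14 to 1.57). FSTL3 and TWSG1 were called in neither line.

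Of the receptor-activated SMADs and SMAD4, SMAD9 moved in opposite directions in the lines, SMAD3 rose in SkMel28, and SMAD1, SMAD2, SMAD4 and SMAD5 were called in neither. SMAD9, a BMP SMAD also named SMAD8, lies on chromosome 13 (36844831 to 36920887, − strand). It stood at 5.76, 8.16 and 6.801 in MeWo control and 5.11, 0.758 and 2.03 in MeWo Dox, from at most 21 reads. MeWo Dox replicate 1 lay just below the lowest control and the other two Dox libraries well below it, and the change was −1.30 (SE 0.35, adjusted p 0.0176). SkMel28 control libraries held 2.51, 2.54 and 1.53 and SkMel28 Dox libraries 6.23, 5.35 and 6.95, all Dox libraries above all controls (2.82-fold, log2 1.18, SE 0.35, adjusted p 0.039). The difference between the lines (log2 −2.48, SE 0.50, adjusted p 0.00664) was called in every alternative run. Each line's own call was less firm. It was lost in MeWo in a fit of that line alone and without MeWo control replicate 2 or 3 or MeWo Dox replicate 2 or 3 (−1.30 to −0.87), and in SkMel28 in 12 of 22 alternatives, among them the fits without any single MeWo control, SkMel28 control or SkMel28 Dox library (1.02 to 1.27).

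SMAD3, which carries the TGF-β and activin signal to DNA, stood at 30.9, 24.1 and 27.6 in SkMel28 control and 45.1, 37.1 and 53.5 in SkMel28 Dox, without overlap (1.64-fold, log2 0.69, SE 0.19, adjusted p 0.0291). In MeWo it held 20.4, 20.6 and 19.8 and 28.1, 17.8 and 17.95, overlapping, with replicate 1 the highest (log2 0.04, SE 0.19, adjusted p 0.93). The SkMel28 call was lost with scaling to spike-ins, without a mean-variance trend, and without SkMel28 control replicate 2 or 3 or SkMel28 Dox replicate 1 or 3 (0.56 to 0.69). SMAD4, the partner of all receptor-activated SMADs, was 55.2 ± 2.704 and 50.8 ± 1.03 in MeWo and 26.2 ± 3.25 and 28.8 ± 1.51 in SkMel28, control and Dox. SMAD2 changed by −0.35 and 0.14, SMAD1 by −0.22 and 0.26, and SMAD5 by −0.29 and 0.03, in MeWo and SkMel28. SMAD5 was called lower in MeWo without MeWo Dox replicate 1 (−0.48).

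The inhibitors inside the cell or at the receptor included PMEPA1, which had the smallest adjusted p of the 51 genes for the difference between the lines. PMEPA1, which is induced by TGF-β and keeps SMAD2 and SMAD3 from the receptor, lies on chromosome 20 (57648392 to 57711536, − strand). MeWo control libraries held 26.8, 20.2 and 28.8 and MeWo Dox libraries 159, 211 and 190.0. The lowest Dox library was several times the highest control, and the mean rose 7.38-fold (log2 2.84, SE 0.25, adjusted p 4.35e-07). SkMel28 held 3.898, 5.71 and 2.299 without and 3.27, 5.01 and 5.44 with Dox, low and overlapping (log2 0.20, SE 0.25, adjusted p 0.696). The lines differed (log2 2.64, SE 0.35, adjusted p 0.000263) in every alternative run. NKILA, the antisense RNA that overlaps PMEPA1, changed by 0.49 in MeWo and was not called.

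SMAD6, the inhibitory SMAD of the BMP arm, rose in MeWo from 2.59, 4.66 and 4.86 to 8.299, 9.85 and 8.13, without overlap (2.17-fold, log2 0.98, SE 0.29, adjusted p 0.0258). In SkMel28 it stood at 1.39, 2.86 and 1.53 and 3.86, 5.01 and 2.72, which overlapped at one library (log2 0.74, SE 0.29, adjusted p 0.117), and the difference between the lines was not called (log2 0.24, adjusted p 0.744). The MeWo call was lost with a pseudocount of 0.1, in a fit of MeWo alone and without MeWo control replicate 1 or MeWo Dox replicate 2 or 3 (0.76 to 1.03). SMAD7, its counterpart for both arms, held at most 10 reads in any library and was at the floor in both MeWo groups.

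In SkMel28 limma called 0 of these 11 inhibitors, where 5.88% of all genes were called higher and 5.04% lower. At an unadjusted p under 0.05, 4 were higher and 0 lower, edgeR called 1 higher and DESeq2 called 0. SKI and SKIL, nuclear repressors that bind SMAD complexes, came closest. SKI held 83.2, 54.9 and 68.98 in SkMel28 control and 100.3, 95.6 and 109.7 in SkMel28 Dox, without overlap (log2 0.57, SE 0.19, adjusted p 0.0641), and SKIL held 22.3, 12.4 and 19.2 and 26.7, 35.1 and 28.7, also without overlap (log2 0.75, SE 0.25, adjusted p 0.0661). Their MeWo changes were −0.04 and −0.02. SKI was called higher in SkMel28 without MeWo Dox replicate 1 or 2 (0.57) or SkMel28 control replicate 1 (0.72), and SKIL without MeWo Dox replicate 1 or 2 (0.75), with edgeR (0.74) and with a pseudocount of 5 (0.63). The ubiquitin ligases SMURF1 and SMURF2, the repressors TGIF1 and TGIF2, the nuclear envelope protein LEMD3 and the decoy receptor BAMBI were called in neither line, with changes of −0.36 (LEMD3) to 0.37 (TGIF2) in MeWo and −0.31 (TGIF1) to 0.81 (LEMD3) in SkMel28. TGIF2 was called higher in MeWo without MeWo Dox replicate 1 (0.56).

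The ID proteins are helix-loop-helix factors without a DNA-binding region, which hold basic helix-loop-helix partners off DNA, and their genes are classic targets of BMP and SMAD1 or SMAD5. ID1, on chromosome 20 (31605283 to 31606515, + strand), stood at 5.18, 6.605 and 5.18 in MeWo control and 18.2, 25.8 and 25.7 in MeWo Dox. In SkMel28 it stood at 24.2, 30.5 and 30.3 and 85.5, 95.3 and 83.7. In each line all Dox libraries were far above all controls, 4.11-fold in MeWo (log2 1.85, SE 0.18, adjusted p 1.47e-06) and 3.11-fold in SkMel28 (log2 1.61, SE 0.18, adjusted p 1.41e-05). A difference between these changes was not called (log2 0.24, SE 0.25, adjusted p 0.577), and both calls held in every alternative run.

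ID3, on chromosome 1 (23557926 to 23559501, − strand), held 55.6, 54.01 and 62.5 in MeWo control and 84.3, 103 and 67.7 in MeWo Dox, the lowest Dox library close above the highest control (1.48-fold, log2 0.54, SE 0.13, adjusted p 0.00992). SkMel28 control libraries held 359, 344 and 390.1 and SkMel28 Dox libraries 623, 641 and 587, with a wide gap (1.69-fold, log2 0.76, SE 0.13, adjusted p 0.00105). The MeWo call was lost in a fit of MeWo alone and without MeWo control replicate 2 (0.50).

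ID2, on chromosome 2 (8678845 to 8684461, + strand), went the other way in MeWo. It stood at 29.4, 33.4 and 36.3 in MeWo control and 16.3, 15.9 and 21.3 in MeWo Dox, all Dox libraries below all controls, and fell (log2 −0.86, SE 0.18, adjusted p 0.00267), a call lost with scaling to spike-ins (−0.60). SkMel28 held 17.3, 17.5 and 20.3 without and 29.1, 29.7 and 22.97 with Dox, all Dox libraries above all controls, a change just short of the threshold (log2 0.54, SE 0.18, adjusted p 0.0593). It was called in SkMel28 without any 1 of the 3 MeWo Dox libraries (0.54) or SkMel28 Dox replicate 3 (0.66). The difference between the lines (log2 −1.40, SE 0.25, adjusted p 0.00289) was called in every alternative run, and the overlapping ID2-AS1 changed by −0.19 in MeWo, which was not called. ID4 held 12.1, 10.9 and 9.72 in MeWo control and 8.299, 6.44 and 8.81 in MeWo Dox, and 5.29, 3.81 and 8.81 and 7.72, 6.35 and 8.76 in SkMel28. Its MeWo groups did not overlap, yet the change was not called in either line (−0.43 and 0.36). TGFBI, a matrix protein named for its induction by TGF-β, was 4.54 ± 0.9403 and 4.53 ± 1.44 in MeWo, and SkMel28 had 0 reads for it in all 6 libraries.

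**Figure D4:**
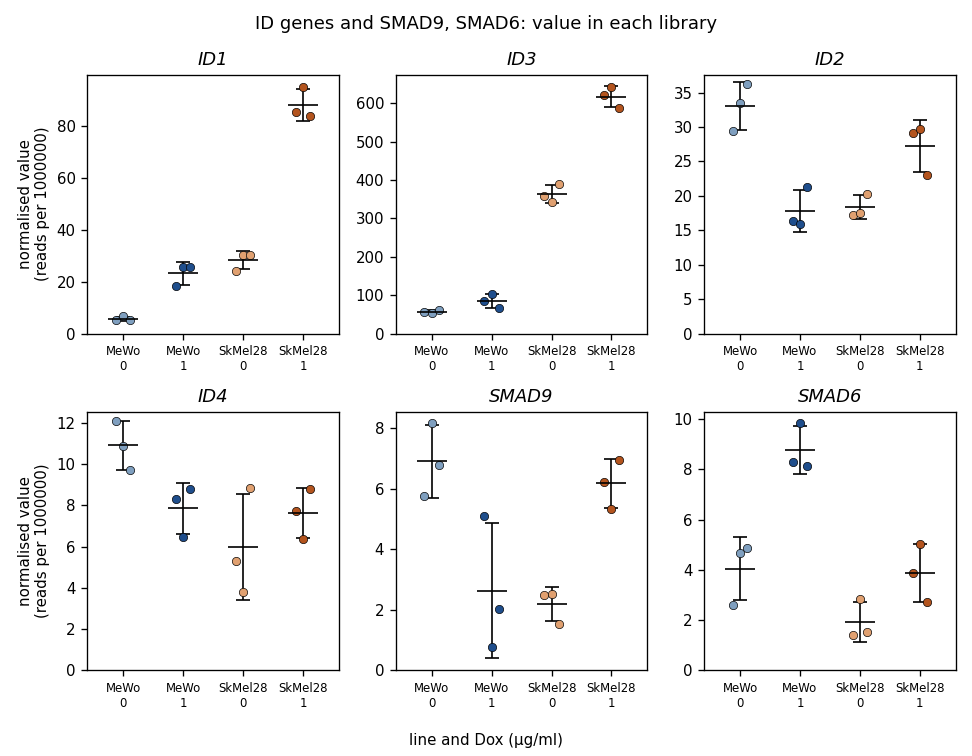
Normalised value (reads per 1000000 of effective library size, linear axis from 0) of ID1, ID3, ID2, ID4, SMAD9 and SMAD6 in each of the 12 libraries, by line and Dox dose in µg/ml. Points are libraries, horizontal lines group means and bars the SD of 3 libraries. ID1 and ID3 are higher with Dox in both lines, and the Dox libraries of ID2 and SMAD9 lie below the controls in MeWo and above them in SkMel28.

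Shown are the promoters of ID1 and ID3, which moved together, and of ID2 and SMAD9, which split between the lines. The ID genes are known targets of BMP SMADs, and MITF, a DNA-binding factor, was lower with Dox. Each line holds the 250 bases before the RefSeq start (GRCh38.p14), read 5′ to 3′ on the gene's strand. Capitals mark every match to CACGTG, the core of the E-box bound by MITF and its relatives, and to GGAGCC or GGCGCC, forms of the GC-rich element bound by BMP SMADs. Both strands were searched, so GGAGCC appears as GGCTCC where it lies on the other strand, while CACGTG and GGCGCC read alike on both.
ID1 (chr20:31605039-31605288, + strand): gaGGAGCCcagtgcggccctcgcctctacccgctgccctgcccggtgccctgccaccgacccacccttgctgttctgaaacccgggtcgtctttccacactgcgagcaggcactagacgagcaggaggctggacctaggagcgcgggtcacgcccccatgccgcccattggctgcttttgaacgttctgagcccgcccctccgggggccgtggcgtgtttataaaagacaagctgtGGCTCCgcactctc
ID3 (chr1:23559502-23559751, − strand): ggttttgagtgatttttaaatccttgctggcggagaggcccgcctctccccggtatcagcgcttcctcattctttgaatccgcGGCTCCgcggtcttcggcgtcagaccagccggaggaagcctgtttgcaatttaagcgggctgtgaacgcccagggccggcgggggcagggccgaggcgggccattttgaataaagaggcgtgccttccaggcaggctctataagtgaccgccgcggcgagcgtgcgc
ID2 (chr2:8681806-8682055, + strand): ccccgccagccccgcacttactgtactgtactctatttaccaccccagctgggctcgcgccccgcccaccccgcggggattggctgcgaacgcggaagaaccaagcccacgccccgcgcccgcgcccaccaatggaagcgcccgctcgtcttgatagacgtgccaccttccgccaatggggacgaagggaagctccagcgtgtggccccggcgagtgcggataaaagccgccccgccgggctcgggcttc
SMAD9 (chr13:36920239-36920488, − strand): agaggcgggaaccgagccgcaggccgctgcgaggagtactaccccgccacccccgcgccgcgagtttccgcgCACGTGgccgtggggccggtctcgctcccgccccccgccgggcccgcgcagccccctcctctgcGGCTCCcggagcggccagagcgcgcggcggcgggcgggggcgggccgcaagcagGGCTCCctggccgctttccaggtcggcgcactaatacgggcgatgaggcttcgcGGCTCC
ID1 held 2 matches to GGAGCC, at 248 and 14 bases before the start, and ID3 held 1, at 167 bases. The ID2 window held none of the 3 motifs, and sequence farther upstream was not searched for any gene. SMAD9 held 1 CACGTG, at 178 bases, and 3 matches to GGAGCC. Over all 35116 promoter windows of this length in the table, 6.34% held CACGTG, 30.6% held GGAGCC and 16.4% held GGCGCC, so a match to GGAGCC is common. Of the 87 windows of the pathway genes, called or not, 7 held CACGTG, 43 held GGAGCC and 19 held GGCGCC. These letters describe the windows only, and their part in the changes above was not tested.

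Without Dox the lines already differed widely in these genes. Of the 51 genes 29 (56.9%) were called between SkMel28 control and MeWo control, 10 higher and 19 lower in SkMel28, where 51.4% of all genes were called, 26.6% higher and 24.8% lower. The control libraries here are those of the Dox comparisons, so that these values are not independent of the changes with Dox. The ligands split by line. SkMel28 control had BMP7 at 24.2, 26.97 and 26.8 where MeWo control held 0.288, 0.389 and 0.972, at least 26.00-fold higher (log2 4.15, SE 0.30, adjusted p 3.64e-09). MeWo control had TGFB2 at 8.93, 7.77 and 10.4 and BMP4 at 11.2, 9.71 and 12.3. In SkMel28 control TGFB2 had 0 reads and BMP4 at most 2 per library, so they were at least 9.21-fold and 11.3-fold lower (log2 −3.32, SE 0.27, adjusted p 1.45e-08 and log2 −2.96, SE 0.33, adjusted p 9.77e-07).

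Of the receptors, SkMel28 control had more TGFBR1 (68.8 ± 11.8 against 25.1 ± 3.92, log2 1.42, adjusted p 2.96e-06) and less TGFBR2 (10.03 ± 3.42 against 28.03 ± 2.83, log2 −1.45, adjusted p 0.000666), ACVR2A (−1.34), ACVR2B (−1.66) and BMPR1A (−0.81). SMAD1, SMAD4, SMAD5 and SMAD9 were lower in SkMel28, with SMAD4 at 26.2 ± 3.25 against 55.2 ± 2.704 (log2 −1.05, adjusted p 6.36e-06). PMEPA1 was 3.97 ± 1.71 against 25.3 ± 4.505 (log2 −2.45, adjusted p 3.06e-07), and LTBP3 was 24.5 ± 4.48 against 69.8 ± 1.97 (log2 −1.49, adjusted p 3.41e-07). BAMBI, the decoy receptor, was higher in SkMel28 (91.3 ± 11.7 against 52.6 ± 3.66, log2 0.78, adjusted p 0.000316).

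All 5 genes of the group of ID proteins and TGFBI were called, where 51.4% of all genes were. ID1 (28.3 ± 3.55 against 5.66 ± 0.821, log2 2.14, adjusted p 2.80e-08) and ID3 (365 ± 23.5 against 57.4 ± 4.52, log2 2.65, adjusted p 3.89e-11) were higher in SkMel28. ID2 (−0.81), ID4 (−0.83) and TGFBI, at least 4.63-fold, were lower. Of the 29 calls 22 held in every alternative, and the calls of BMP2, BMPR1A, SMAD1, SMAD5, SMAD6, LEMD3 and ID4 were lost in at least 1. If the labels hold on the medium, line and medium cannot be told apart in any of these values.

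**Figure D5:**
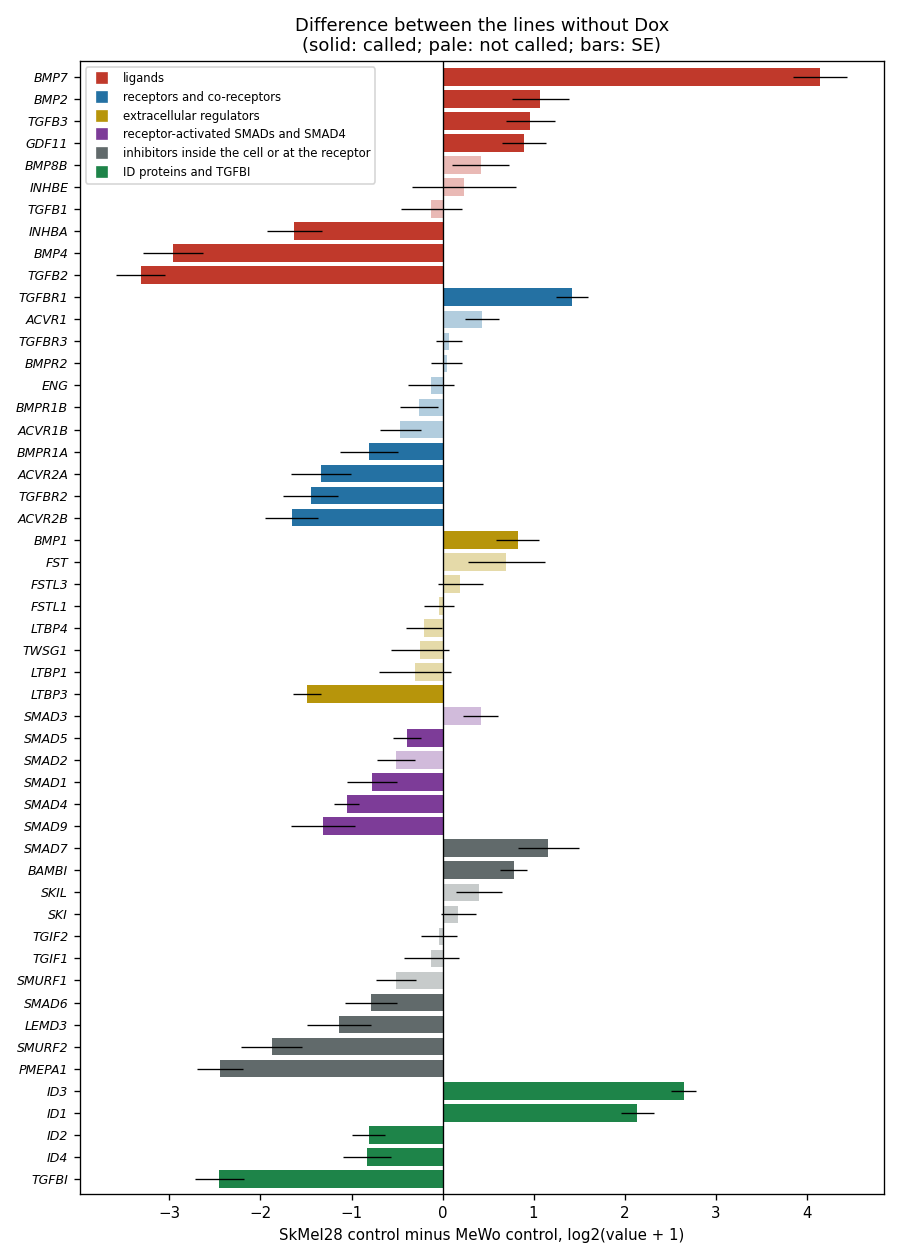
Difference between the uninduced lines, SkMel28 control minus MeWo control in log2(value + 1), for the 51 genes grouped by role, with the SE from limma as black lines. Solid bars were called and pale bars were not. BMP7 (4.15), ID3 (2.65) and ID1 (2.14) extend farthest toward SkMel28, and TGFB2 (−3.32), BMP4 (−2.96), TGFBI (−2.45) and PMEPA1 (−2.45) toward MeWo.

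Beside the 51 genes, 122 further symbols of the pathway were searched, other ligands and antagonists, receptors and surface partners, intracellular parts and target genes, and 75 had a row. In MeWo 22 of the 75 (29.3%) were called, 15 higher and 7 lower, and in SkMel28 15 of the 75, 11 higher and 4 lower, against the shares of all genes given above. The symbols were listed with earlier results of these data known, so these counts are no independent support. The count in MeWo was 11 when the line was fitted alone, and that in SkMel28 10 without SkMel28 Dox replicate 1 or 2. Scaling to spike-ins gave 19 higher and 2 lower in MeWo and 5 higher and 3 lower in SkMel28. Called higher in both lines were 6: the integrin subunits ITGB5 and ITGB8, the latter known to free TGF-β from its latent form, the protease HTRA1, and TSC22D1, CDH2 and ETV1, where 1.91% of all genes were called higher in both. Of these, ITGB8, TSC22D1 and CDH2 were called in both lines in every alternative. In SkMel28 the calls of ITGB5 (0.35), HTRA1 (0.54) and ETV1 (0.55) were lost with scaling to spike-ins, as were ITGB5 without SkMel28 Dox replicate 2 (0.44), HTRA1 without SkMel28 control replicate 1 or SkMel28 Dox replicate 3 (0.56 to 0.59) and ETV1 without SkMel28 control replicate 3 or SkMel28 Dox replicate 1 or 2 (0.58 to 0.64). Without a mean-variance trend ITGB5 was lost in both lines and HTRA1 in SkMel28. In MeWo ITGB5 and ETV1 were lost in a fit of that line alone, and ITGB5 without MeWo control replicate 3 or MeWo Dox replicate 3 (0.35 to 0.36). Of all genes 1.79% were called lower in both lines. The 2 here were ZFYVE16, which brings SMADs to the receptor, and NEDD4L, a ubiquitin ligase related to SMURF1 and SMURF2. With scaling to spike-ins neither was called lower in both, since NEDD4L was lost in MeWo (−0.09) and ZFYVE16 in both lines (−0.36 in MeWo and −0.59 in SkMel28). In MeWo both were also lost in a fit of that line alone, and NEDD4L without any 1 of the 3 MeWo control libraries or MeWo Dox replicate 3 (−0.39 to −0.32). In SkMel28 ZFYVE16 was lost without any 1 of the 3 SkMel28 control libraries or SkMel28 Dox replicate 1 or 2 (−0.54 to −0.40), and the NEDD4L call in MeWo and the ZFYVE16 call in SkMel28 were lost without a mean-variance trend. Of the 22 genes listed as targets, 5 were called higher and 2 lower in MeWo, against 8.58% and 8.12% of all genes. In SkMel28 4 were called, all higher, against 5.88% higher and 5.04% lower of all genes. The called genes include NKD1, ETV1 and VEPH1, whose standing as targets of the pathway was not tested. CTGF, a common reporter of TGF-β and YAP, changed by 0.26 and 0.24 and was called in neither line.

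CDH2, N-cadherin, a target of TGF-β in epithelial-mesenchymal transition, had the largest rise of this list in SkMel28 and the second in MeWo among genes with a mean of at least 10. It stood at 30.2, 30.3 and 30.1 in MeWo control and 70.2, 111 and 157 in MeWo Dox (log2 1.79, SE 0.23, adjusted p 3.44e-05), and at 10.3, 16.2 and 12.6 and 54.6, 55.5 and 41.1 in SkMel28 (log2 1.88, SE 0.23, adjusted p 3.39e-05). FN1, fibronectin, rose in SkMel28 from 1191, 1549 and 1272 to 4459.7, 4567 and 4447 (log2 1.76, SE 0.20, adjusted p 1.90e-05) and in MeWo held 43.2, 43.5 and 50.8 and 30.00, 70.9 and 42.3, which overlapped (log2 −0.03, SE 0.20, adjusted p 0.958). The lines differed in this change (log2 −1.78, SE 0.29, adjusted p 0.00144). In MeWo NKD1 (2.32) and HTRA1 (1.57) rose, and VEPH1 (−1.26), SNAI2 (−0.85) and RGMB (−0.72) fell, RGMB with a call lost in 16 of 22 alternatives and SNAI2 with one lost with scaling to spike-ins (−0.59) and in a fit of MeWo alone. In SkMel28 TSC22D1 (0.92) rose, and HIPK2 (−1.43), NEDD4L (−0.72) and GDF15 (−0.58) fell.

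GDF15, a distant member of the ligand family that signals through GFRAL rather than a SMAD receptor, was the gene called in opposite directions. It stood at 324, 330.2 and 384 in MeWo control and 644, 880.4 and 1012 in MeWo Dox (log2 1.27, SE 0.15, adjusted p 1.19e-05), and at 354, 456 and 375 and 269, 238 and 282 in SkMel28 (log2 −0.58, SE 0.15, adjusted p 0.0172). Its SkMel28 call was lost without a mean-variance trend and without SkMel28 control replicate 2 or SkMel28 Dox replicate 1 or 2 (−0.60 to −0.47). LDLRAD4, a relative of PMEPA1 that likewise restrains SMAD2 and SMAD3, was chosen after its values were seen. It held 0.288, 1.94 and 1.296 in MeWo control and 12.1, 8.34 and 8.47 in MeWo Dox (log2 2.35, SE 0.31, adjusted p 3.66e-05), and at most 1 read in any SkMel28 library.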

How the data were processed

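RNA was measured in 12 libraries, 3 per line and Dox dose, by QuantSeq Forward 3′ end sequencing. The deposited values are a normalised signal, which the authors made with edgeR by dividing reads per gene by an effective library size and scaling to 1000000. Per the submitters' processing notes FastQC 0.11.7, cutadapt 2.8, STAR 2.5.1b and hg38 were used. The counter, its annotation, its use of strand and the edgeR version are not given in the sources used here. Every one of the 12683 deposited features reaches 1 in at least 3 libraries. A gene that does not has no row, but whether that is why the 3 searched symbols lack one was not tested. Those 3 were not analysed here.

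All values (100%, within 0.01 of a whole number) came out as whole reads when divided by the value of 1 read, giving 2568187 to 3714608 reads per library. Floors and bounds set at 3 reads per library cover counting error only. The 67 ERCC spike-ins were set aside, and 12616 genes were fitted with limma 3.58.1 in R 4.3.3 (lmFit, eBayes with a mean-variance trend) on log2(value + 1), so that changes of low genes are understated. All 12 libraries entered as 4 group means, and tests were two-sided at a Benjamini-Hochberg adjusted p under 0.05. The test was checked on simulated reads. The members and lists were chosen with earlier results of these data known, and support no independent direction.

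Values in every library are given for members called in a line or in the interaction with a group mean of at least 5. From the other pathway genes the 3 largest rises and 3 largest falls per line were named among called genes whose higher group averaged 10 or more, and others named were chosen after their values were seen. Alternatives were edgeR 4.0.16 quasi-likelihood tests and DESeq2 1.42.0 on recovered reads, upper-quartile and spike-in scaling, pseudocounts of 0.1 and 5, a filter of at least 5 in 3 libraries, no trend, a fit of each line alone, a replicate block, and leaving out each library. Loci are from GENCODE release 44 (hg38), which placed all 51 genes. Of these 11 overlap another listed gene, 8 of them within their last 500 bases. Promoters are from RefSeq (GRCh38.p14), with an entry for 46 of the 51 genes.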

Additional observations from a re-analysis of the deposited data

Results flagged for a closer look

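The change with Dox differed between the lines by a test of the difference itself (the interaction in limma, MeWo change minus SkMel28 change) for 6 of the 51 genes. Positive values mean a larger upward change in MeWo. They were 2.64 for PMEPA1, 2.38 for INHBA, 1.33 for BMP1, −1.40 for ID2, −1.95 for TGFBR2 and −2.48 for SMAD9. In PMEPA1, INHBA and BMP1 the MeWo Dox libraries lay above the MeWo controls in 3 of 3 libraries, and the SkMel28 change had the same sign but was not called. TGFBR2 had the opposite arrangement, with 3 of 3 SkMel28 Dox libraries above all SkMel28 controls and the MeWo Dox libraries on both sides of theirs. For ID2 and SMAD9 the 3 Dox libraries of each line lay on opposite sides of their controls. The differences of INHBA and BMP1 depend on the settings named with their values in the report, and the other 4 were called in every alternative run.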

How the results depend on the processing

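No called value of the 51 genes changed sign in any alternative. Calls that held in every alternative were INHBA, BMP1, LTBP3, PMEPA1 and ID1 in MeWo, TGFBR1, TGFBR2, FSTL1, ID1 and ID3 in SkMel28, and TGFBR2, SMAD9, PMEPA1 and ID2 for the difference between the lines. Fitting MeWo alone left 7 of the 14 calls in MeWo and 11 of the 22 among the other pathway genes. Scaling to spike-ins left 6 of the 12 calls in SkMel28 and 8 among the other pathway genes, and moved the median of all genes by 0.26 in MeWo, −0.09 in SkMel28, 0.35 in the interaction and 0.14 between the control groups. Leaving out 1 library at a time gave 8 to 17 calls in MeWo, 5 to 16 in SkMel28, 5 to 14 for the interaction and 25 to 32 between the control groups, and for the other pathway genes 17 to 28 in MeWo and 10 to 20 in SkMel28. The highest count of each came without MeWo Dox replicate 1, and the cause was not tested. Where a group is left with 2 libraries, the spread is shared with the other groups.

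The labels do not say that equal replicate numbers share a culture or a day, and deviations of same-numbered control and Dox libraries correlated at −0.18 to 0.04 in MeWo and −0.05 to 0.16 in SkMel28 across genes, so the libraries were not treated as pairs. With the replicate block 12 genes were called in MeWo, 10 in SkMel28, 6 for the interaction and 29 between the control groups, and 21 and 15 of the other pathway genes. It ended the calls of ENG and BMPR2 in MeWo and of BMP2, BMPR1A and BMPR1B in SkMel28, and SKI was then called higher in SkMel28 (0.57).

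A filter of at least 5 in at least 3 libraries keeps 43 of the 51 genes and cannot give values for TGFB1, TGFB3, BMP2, BMP8B, INHBE, BMPR1A, LTBP1 and SMAD7. At 0.278 to 0.389 per read, small changes in these and in other genes near the floor were not detectable at this depth.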
